A study of Capra hircus with 6 samples.

Results

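The genes of the Fanconi anemia pathway, which repairs DNA strands that are chemically crosslinked to each other, were examined in preadipocytes of goat muscle, which are precursors of the fat within it. A list of 41 genes of this pathway and of the crosslink repair steps that follow it was matched to the gene names of the deposited FPKM table, and 36 of them had a row among the 27271 genes. FANCB, FANCL, EME2, RMI2 and POLN had no row under these names and were not analysed here. Of the 36 genes, 19 had enough reads to pass edgeR's filter on low counts, and 17 did not. Primary cells from the longissimus dorsi of 3-day-old Jianzhou goats received either a negative control siRNA (NC groups, 3 libraries, genotype given as WT) or an siRNA against LIPG, the gene of endothelial lipase (Si-LIPG groups, 3 libraries, genotype given as LIPG Knock down). All cells were then kept in a medium with 50 μmol/L oleic acid for 48 h, so that both groups share the transfection and the induction of fat storage. The labels do not say whether the 3 libraries of a group came from separate animals or cultures, so that p values measure only the spread between these libraries, which may be technical.

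A crosslink between the strands stops a replication fork. The Fanconi core complex recognises the stalled fork and, with the E2 enzyme UBE2T, attaches ubiquitin to the ID2 complex of FANCD2 and FANCI. The modified ID2 complex recruits nucleases that cut around the crosslink, translesion polymerases copy across the remnant, and the BRCA proteins complete the repair by homologous recombination. Many of these genes are expressed most in dividing cells, since the pathway acts during DNA replication.

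The reads behind these values were few. Between 36451898 and 52638817 reads were made per library, but only 524776 to 1051230 of them were counted on genes, which is 0.997% to 1.53% of all reads for NC against 1.80% to 2.88% for Si-LIPG. The groups did not overlap in this share, so that a change of the share and a change of single genes between the groups cannot be told apart. NC 1 stood apart from the other NC libraries, with the lowest share of reads on genes and a TMM factor of 0.601 against 0.949 and 0.927. The mitochondrial gene ND6, which is transcribed from the strand opposite to the other 12 mitochondrial protein genes, had 54.2 to 99.3 times the counts per kb of their median for NC against 22.6 to 49.8 times for Si-LIPG, without overlap. With libraries that keep the strand, this bears on every value given here: the sources used here do not name the strand setting of the counting, and whether reads of a member came from its own transcript or from the opposite strand was not tested. LIPG itself had at most 2 counts in any library, below the 3 counts that a count of 0 allows, so that the silencing could not be checked in these libraries. The paper reports the knockdown by RT-qPCR and, for the siRNA it went on to use, by Western blot.

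The cells carried stromal markers, of which 10 of 12 could be tested, with COL1A1 counts between 2841 and 17392. Their summed level was 74.5 to 231 RPM (counts per 1000000 of all reads of the library) for NC against 376 to 627 for Si-LIPG, and DLK1 was at 0. Adipocyte markers were near 0, and the counts of all 6 together were between 2 and 31 per library. Myogenic markers were also detected. The summed level of 8 myogenic markers, of which MYOD1, DES and CDH15 could be tested, was 1.61 to 3.01 RPM of all reads for NC against 5.18 to 8.97 for Si-LIPG, while MYMK was at 0. Of the 6 endothelial markers CDH5, KDR, TEK and CLDN5 were at 0 in every library, and of the 6 immune markers PTPRC and ITGAM were. Per all reads 92.3% of all tested genes had a positive log2 fold change. In TMM-normalized CPM, which is scaled to reads on genes, the groups overlapped for both sums. The stromal sum was then 12713 to 16793 for NC against 16691 to 20396 for Si-LIPG. The myogenic sum was 183 to 276 for NC against 239 to 281 for Si-LIPG. The part of the higher stromal and myogenic sums per all reads in the members' values was not tested. In bulk RNA, fewer cells of a type and less RNA per cell cannot be told apart.

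Members of the pathway moved apart from each other. FANCA, FAAP24 and FANCG of the core complex, the nuclease subunit EME1 and the polymerase POLH lost ground against other genes in the Si-LIPG groups. FANCD2 gained. Counts were compared by edgeR's quasi-likelihood test on 2 scales. TMM normalization takes the bulk of the genes to be stable across libraries, and the second scale divides each count by all reads of the library, including those counted on no gene. On both scales a gene met the criterion of the study when its fold change exceeded 1.5 and its unadjusted p was below 0.05. At this criterion DESeq2 gave 629 of 14848 genes as higher in the Si-LIPG groups and 1064 as lower. The paper, which used DESeq2 too, reports the opposite balance, with 1064 of 1695 differential genes upregulated. Here DESeq2 also gave 1695 genes an unadjusted p under 0.05, and 1064 is the number that was lower. The directions given here follow the sample titles, and they may be the reverse of the paper's own calls. Why the balance differs was not tested. After TMM normalization 7 of the 19 tested members were lower at the criterion in the Si-LIPG groups, which is 36.8% against 12.9% of all 6574 tested genes. FANCF, among these 7, passed the low-count filter only through the NC libraries, where it is high. FANCD2 alone was higher, which is 5.26% of the members against 7.83% of all tested genes. FANCA and FAAP24 had an adjusted p under 0.05, both lower, where 5.54% of all tested genes were lower with such a p.

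Per all reads the directions differed. No member was lower at the criterion on this scale (0 of 19, against 0.0304% of all tested genes), and 7 of the 19 were higher, which is 36.8% against 46.1% of all tested genes. ATRIP, among these 7, passed the low-count filter only through the Si-LIPG libraries, where it is high. FANCI and REV1, also among them, reached the minimum of that filter in only 1 NC library each, and FANCD2, WDR48, BRCA1 and ATR in 2 each. None of the 7 reached it in every NC library, so that each passed with the help of Si-LIPG libraries, the group where they are high. FANCD2 was the one member with an adjusted p under 0.05, where 11.4% of all tested genes were higher with such a p. Over all tested genes the median log2 fold change (Si-LIPG against NC) was 0.16 with TMM and 1.58 per all reads. The median of the tested members was -0.59 and 0.96, a difference from the median of all genes of -0.75 on the first scale and of -0.62 on the second. Relative to that median, 12 members lay below and 7 above on either scale.

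**Figure D1:**
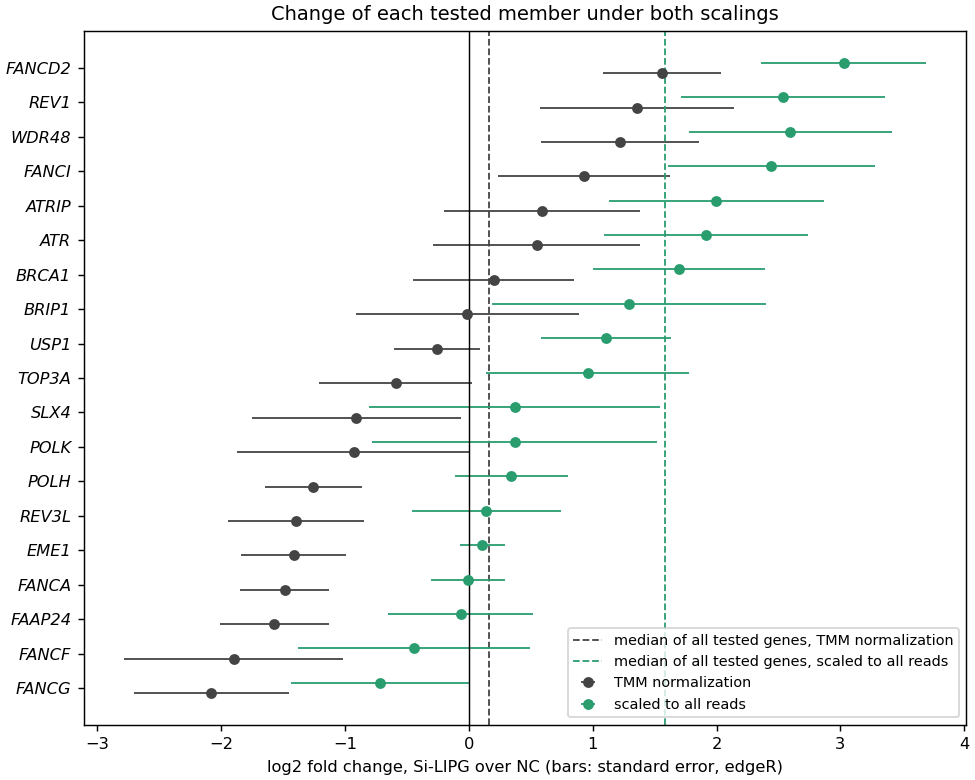
Log2 fold change (x axis, Si-LIPG over NC) of the 19 tested members, sorted from FANCG at the bottom to FANCD2 at the top. Dark points are after TMM normalization, green points are scaled to all reads, bars are edgeR's standard errors, and the dashed lines mark the median of all tested genes on each scale (0.16 and 1.58). The order of the members is nearly the same on both scales, but the whole set is shifted to the right when scaled to all reads.

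The core complex recognises the lesion and acts as the ubiquitin ligase of the pathway. All 4 of its members that could be tested were lower at the criterion after TMM normalization (100%, against 12.9% of all tested genes). The 5 others with a row were below the filter, so that this count does not cover them. FANCF, among these 4, was tested only through the NC libraries, where it is high. FANCA (ENSCHIG00000003612), a large scaffold subunit, had 354, 372 and 404 counts in NC 1, NC 2 and NC 3, and 346, 342 and 282 in Si-LIPG 1, Si-LIPG 2 and Si-LIPG 3. These counts were similar, but the Si-LIPG libraries had more reads on genes in all. With TMM the CPM of FANCA averaged 818 ± 286 (SD, n = 3) for NC against 292 ± 92.9 (SD, n = 3) for Si-LIPG, without overlap. Its log2 fold change was -1.49 (standard error 0.36, edgeR adjusted p = 0.0395). In RPM of all reads it had 8.08 ± 1.17 (SD, n = 3) and 8.031 ± 1.008 (SD, n = 3), and the groups overlapped (log2 fold change -0.01, standard error 0.30, edgeR adjusted p = 0.984).

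FAAP24 (ENSCHIG00000021119), which binds DNA together with FANCM, had counts of 30, 37 and 32 in the NC libraries against 25, 25 and 31 with Si-LIPG. Its log2 fold change was -1.57 after TMM normalization (standard error 0.44, edgeR adjusted p = 0.0473) and -0.07 when scaled to all reads (standard error 0.58). The groups were apart on the first scale and overlapped on the second. FANCG (ENSCHIG00000021663), an adaptor that binds FANCA, was counted 17, 17 and 30 times in the NC libraries against 14, 14 and 6 with Si-LIPG. It had the lowest log2 fold change of the tested members, -2.08 after TMM normalization (standard error 0.63, edgeR adjusted p = 0.0599) and -0.72 scaled to all reads (standard error 0.72). FANCF (ENSCHIG00000007412), another adaptor, had counts of 10, 8 and 17 against 8, 1 and 13 and, with TMM, a log2 fold change of -1.90 (standard error 0.89, edgeR adjusted p = 0.24). For both adaptors the groups were apart with TMM and overlapped per all reads. FANCF reached the minimum of the low-count filter in 3 of 3 NC and 0 of 3 Si-LIPG libraries, so that it was tested only through the group where it is high. It stayed at the criterion in 1 of the 6 fits that left out a library.

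The remaining core complex members were below the filter. The E2 enzyme UBE2T had counts of 0, 5 and 11 in the NC libraries against 12, 10 and 9 with Si-LIPG. FAAP100 had 0, 6 and 4 against 3, 26 and 10, FANCE had 0, 8 and 4 against 0, 14 and 6, and FANCC had 0, 0 and 2 against 5, 0 and 12. The translocase FANCM had 1, 3 and 0 against 4, 3 and 10. These genes were not tested by edgeR, since their counts were too few. DESeq2, run without this filter, gave log2 fold changes of 1.97 for FANCC, 0.81 for FAAP100, 0.75 for FANCM, 0.01 for UBE2T and -0.44 for FANCE. The lower values of the tested core complex members were thus not seen in most members below the filter.

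The ID2 complex is the target of the ubiquitin ligase, and USP1 with its cofactor WDR48 removes the ubiquitin again. FANCD2 (ENSCHIG00000026423) had 6, 8 and 14 counts in NC 1, NC 2 and NC 3, and 43, 80 and 71 in Si-LIPG 1, Si-LIPG 2 and Si-LIPG 3. Every Si-LIPG library was above every NC library in counts and on both scales. Its TMM-normalized CPM averaged 18.6 ± 3.89 (SD, n = 3) for NC against 55.2 ± 8.82 (SD, n = 3) for Si-LIPG, which is 1.56 on the log2 scale (standard error 0.47, edgeR adjusted p = 0.0613). In RPM of all reads it rose from 0.202 ± 0.0957 (SD, n = 3) to 1.66 ± 0.671 (SD, n = 3), which is 3.03 on the log2 scale (standard error 0.67, edgeR adjusted p = 0.0462). FANCD2 met the criterion on both scales whichever library was left out, with log2 fold changes between 1.39 and 1.73 after TMM normalization. It reached the minimum of the low-count filter in 2 NC and 3 Si-LIPG libraries, so that it passed with the help of the group where it is high.

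FANCI (ENSCHIG00000001826), the partner of FANCD2, had counts of 5, 3 and 12 in the NC libraries against 16, 46 and 29 with Si-LIPG. The groups did not overlap in RPM of all reads, where it was higher at the criterion (log2 fold change 2.44, standard error 0.83, edgeR adjusted p = 0.0613) and stayed so in 4 of the 6 fits that left out a library. After TMM normalization they overlapped, with a log2 fold change of 0.93 (standard error 0.69, edgeR adjusted p = 0.498). WDR48 (ENSCHIG00000009086) was counted 2, 8 and 9 times in the NC libraries against 22, 44 and 34 with Si-LIPG. Its groups did not overlap on either scale. The log2 fold change was 2.60 scaled to all reads (standard error 0.82, edgeR adjusted p = 0.0548), which met the criterion, and 1.22 after TMM normalization (standard error 0.64, edgeR adjusted p = 0.300), which did not.

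USP1 (ENSCHIG00000015997), the protease itself, was at 28, 65 and 52 counts in the NC libraries against 91, 84 and 99 with Si-LIPG. Its log2 fold change was -0.26 after TMM normalization (standard error 0.35) and 1.11 scaled to all reads (standard error 0.52), and it did not meet the criterion on either scale.

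**Figure D2:**
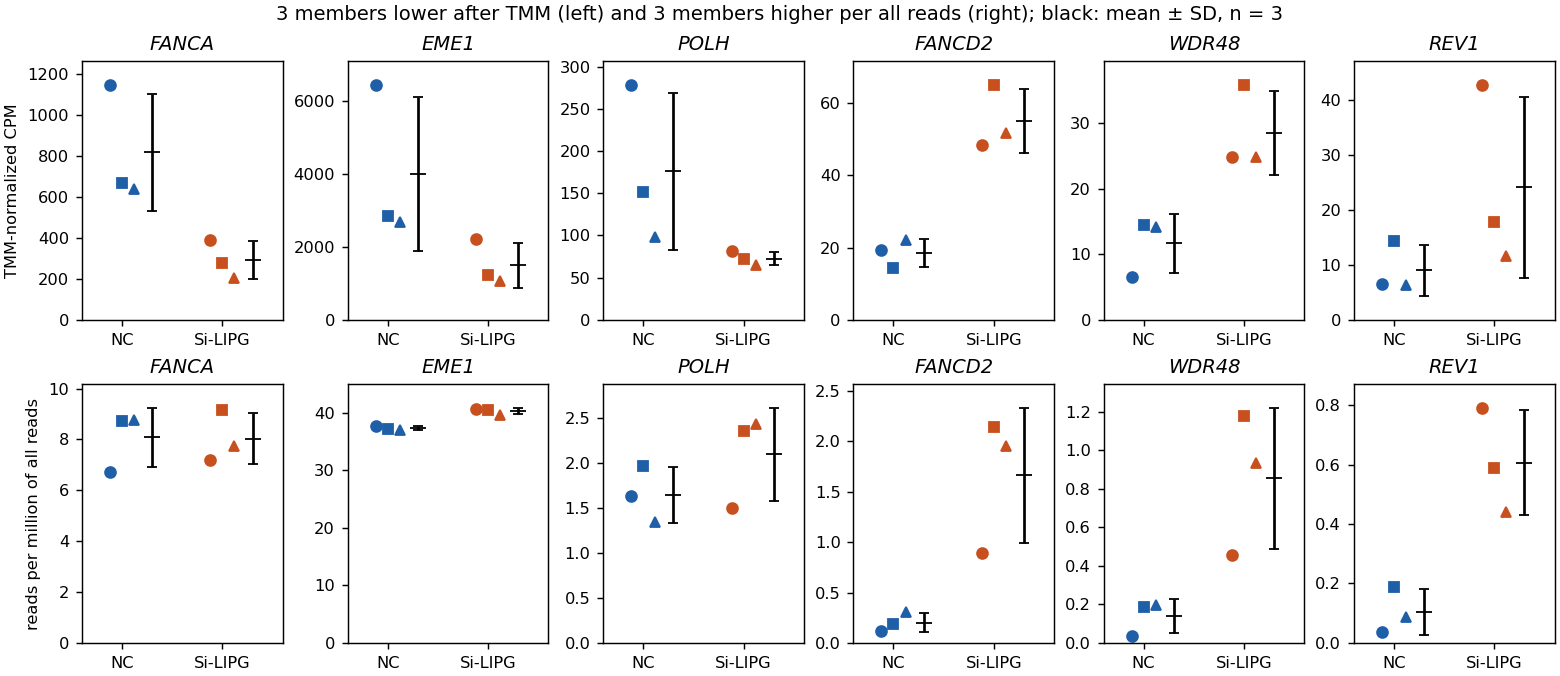
Values of 6 members in each library, as TMM-normalized CPM (upper row) and as RPM of all reads (lower row), with circles, squares and triangles for replicates 1, 2 and 3 and black bars for the mean ± SD (n = 3). FANCA, EME1 and POLH are lower in the Si-LIPG groups in the upper row, while in the lower row EME1 goes from 37.4 to 40.3 and FANCA stays near 8. FANCD2 and WDR48 are higher in every Si-LIPG library in both rows, and REV1 only in the lower row.

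The change of the ID2 pair against the core complex does not depend on how libraries are scaled, since both are read from the same library. FANCD2 and FANCI together had 2.67, 2.41 and 5.16 reads per 100 reads of the 9 core complex genes in NC 1, NC 2 and NC 3. The same ratio was 14.1, 29.0 and 26.4 in Si-LIPG 1, Si-LIPG 2 and Si-LIPG 3. Every Si-LIPG library was thus above every NC library. Most core complex reads were FANCA reads, and the ratio was computed after the values were seen. The ratio shows unequal change and not which side changed. Relative to the median of all tested genes, FANCD2 lay 1.40 above on the log2 scale after TMM normalization and 1.44 above when scaled to all reads. FANCA lay below that median, by -1.65 and -1.59.

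**Figure D3:**
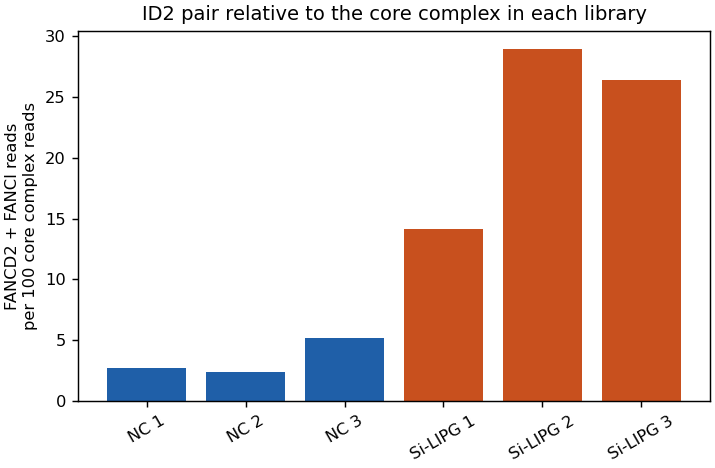
Reads of FANCD2 and FANCI per 100 reads of the 9 core complex genes with a row (y axis), 1 bar per library. The NC libraries lie between 2.41 and 5.16 and the Si-LIPG libraries between 14.1 and 29.0.

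Nucleases unhook the crosslink. EME1 (ENSCHIG00000016180), the partner of MUS81, had by far the most reads of any member, 1988, 1586 and 1708 in the NC libraries against 1957, 1515 and 1447 with Si-LIPG. With TMM its CPM averaged 3998 ± 2121 (SD, n = 3) for NC against 1500 ± 620 (SD, n = 3) for Si-LIPG, and it was lower at the criterion (log2 fold change -1.41, standard error 0.43, edgeR adjusted p = 0.0596). In RPM of all reads EME1 varied little, with 37.8, 37.2 and 37.1 in the NC libraries against 40.7, 40.5 and 39.7 with Si-LIPG. The groups did not overlap, but the difference was small (log2 fold change 0.11, standard error 0.18, edgeR adjusted p = 0.628). LRRC59 and MRPL27 overlap EME1 according to RefSeq (goat assembly ARS1.2). LRRC59 had 50, 49 and 48 counts in the NC libraries against 133, 196 and 244 with Si-LIPG, and the part of these neighbours in the EME1 counts was not tested. MUS81 itself had counts of 1, 4 and 1 against 0, 12 and 10, far fewer than its partner.

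SLX4 (ENSCHIG00000017094), the scaffold that holds the nucleases, was counted 0, 46 and 12 times in the NC libraries against 15, 13 and 39 with Si-LIPG. The spread within the NC groups was larger than the difference between the groups, and the log2 fold change of -0.91 after TMM normalization (standard error 0.84) became 0.77 without NC replicate 2, while without NC replicate 1 it was -1.42 and met the criterion. The nuclease FAN1, which acts beside SLX4, had 1, 6 and 8 counts against 8, 22 and 22 and was below the filter.

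Translesion polymerases copy damaged DNA at the price of errors. POLH (ENSCHIG00000010328), which is known for bypassing UV lesions, had counts of 86, 84 and 62 in the NC libraries against 72, 88 and 89 with Si-LIPG. It was lower at the criterion after TMM normalization, with a CPM of 176 ± 93.0 (SD, n = 3) and 72.7 ± 8.16 (SD, n = 3) and without overlap (log2 fold change -1.25, standard error 0.39, edgeR adjusted p = 0.0666). Per all reads its log2 fold change was 0.34 (standard error 0.45). REV3L (ENSCHIG00000023002), the catalytic subunit of polymerase zeta, had counts of 33, 24 and 22 against 31, 19 and 25. Its log2 fold change was -1.39 after TMM normalization (standard error 0.55, edgeR adjusted p = 0.147), with overlapping groups, and 0.14 scaled to all reads (standard error 0.60). It met the criterion in 3 of the 6 fits that left out a library, and did not without NC replicate 1 (-0.78), Si-LIPG replicate 2 (-1.14) or Si-LIPG replicate 3 (-1.21).

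REV1 (ENSCHIG00000012748) is the scaffold to which the other polymerases bind. It was counted 2, 8 and 4 times in the NC libraries against 38, 22 and 16 with Si-LIPG. In RPM of all reads it rose from 0.104 ± 0.0764 (SD, n = 3) to 0.606 ± 0.177 (SD, n = 3) without overlap (log2 fold change 2.53, standard error 0.82, edgeR adjusted p = 0.0566). After TMM normalization the groups overlapped and the criterion was not met (log2 fold change 1.36, standard error 0.78, edgeR adjusted p = 0.359). POLK (ENSCHIG00000008105) had 0, 10 and 18 counts against 5, 9 and 17, with log2 fold changes of -0.93 and 0.37 on the 2 scales, both smaller than their standard errors (0.94 and 1.15). POLI had no count in the NC libraries against 0, 4 and 6 with Si-LIPG.

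The BRCA proteins and their partners repair the break that unhooking leaves. BRCA1 (ENSCHIG00000026740) had counts of 10, 12 and 6 in the NC libraries against 28, 21 and 30 with Si-LIPG. The groups did not overlap in RPM of all reads, where it was higher at the criterion (log2 fold change 1.70, standard error 0.70, edgeR adjusted p = 0.0886). This call held in 2 of the 6 fits that left out a library. After TMM normalization its log2 fold change was 0.20 (standard error 0.65), close to the median of all tested genes. BRIP1 (ENSCHIG00000015958), the helicase that binds BRCA1, had 0, 6 and 10 counts against 6, 14 and 14 and met the criterion on neither scale. Below the filter, BRCA2 had 5, 8 and 4 counts against 4, 12 and 26, PALB2, which links it to BRCA1, had 0, 3 and 4 against 0, 16 and 6, and RAD51C had 0, 24 and 13 against 6, 2 and 13.

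The kinase ATR and its partner ATRIP signal the stalled fork and start the pathway. ATR (ENSCHIG00000021916) was counted 8, 3 and 9 times in the NC libraries against 33, 27 and 7 with Si-LIPG, so that Si-LIPG 3 lay within the NC range. ATRIP (ENSCHIG00000024255) had 2, 6 and 7 counts against 12, 14 and 26, without overlap on either scale. ATRIP reached the minimum of the low-count filter in 0 of 3 NC and 3 of 3 Si-LIPG libraries, so that it was tested only through the group where it is high. Per all reads both were higher at the criterion, with log2 fold changes of 1.92 (standard error 0.83, edgeR adjusted p = 0.0977) and 1.997 (standard error 0.87, edgeR adjusted p = 0.0991). ATR kept the criterion in 2 and ATRIP in 1 of the 6 fits that left out a library. After TMM normalization neither was, with 0.55 (standard error 0.83) and 0.59 (standard error 0.79). TELO2, which keeps ATR stable, had 3, 4 and 2 counts against 8, 4 and 9.

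The BLM helicase, TOP3A, RMI1 and RMI2 dissolve the joint molecules that recombination leaves. Only TOP3A (ENSCHIG00000014192), the topoisomerase, could be tested, with 10, 8 and 27 counts against 10, 25 and 37, overlapping groups on both scales and log2 fold changes of -0.59 and 0.96. BLM had 0, 4 and 2 counts against 4, 12 and 10, RMI1 0, 2 and 1 against 4, 4 and 30, and TOP3B 2, 4 and 13 against 3, 14 and 13. The mismatch repair gene PMS2 had 0, 2 and 5 counts against 6, 14 and 27. HES1, a Notch target that binds the core complex, had 4, 2 and 10 against 0, 4 and 14. The 17 members below the filter held between 10 and 67 counts each over the 6 libraries. Their summed level was 0.323, 1.996 and 1.82 RPM of all reads in NC 1, NC 2 and NC 3, and 1.39, 4.63 and 6.39 in Si-LIPG 1, Si-LIPG 2 and Si-LIPG 3, with Si-LIPG 1 inside the NC range.

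**Figure D4:**
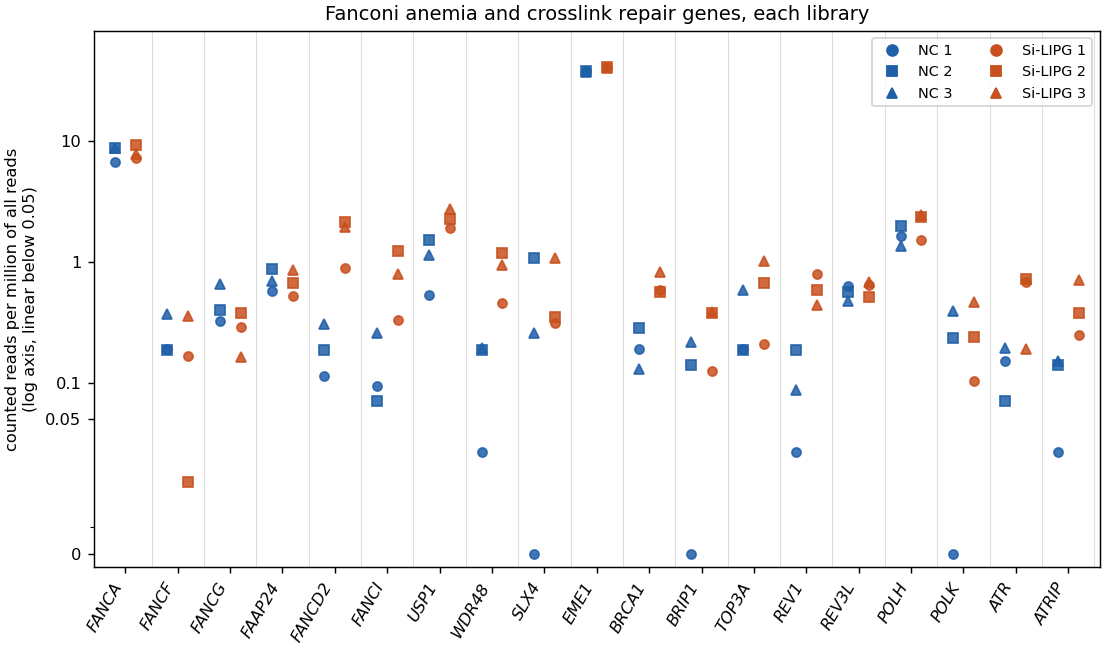
RPM of all reads (y axis, logarithmic above 0.05 and linear below) of the 19 tested members in each library, blue for NC and orange for Si-LIPG, with circles, squares and triangles for replicates 1, 2 and 3. EME1 and FANCA lie highest with little difference between the groups. FANCD2, FANCI, USP1, WDR48, BRCA1, REV1, ATRIP and, by a small margin, EME1 have every orange point above every blue point. On this scale 92.3% of all tested genes had a positive log2 fold change and 46.1% were higher at the criterion. The share of all tested genes without overlap was not counted.

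Per gene length, the members differed widely in level. The FPKM over the 6 libraries was 900 ± 334 (SD, n = 6) for EME1, 113 ± 38.6 (SD, n = 6) for FANCA, 49.1 ± 15.7 (SD, n = 6) for POLH and 35.9 ± 8.53 (SD, n = 6) for USP1. BRCA2 had 1.13 ± 0.703 (SD, n = 6) and ATR 2.20 ± 1.62 (SD, n = 6). Across the 19 tested members, Spearman's rho between the mean FPKM and the log2 fold change after TMM normalization was -0.416, against -0.233 across all 6574 tested genes. These are descriptions across genes of the same 6 libraries. In the ARS1.2 annotation another gene overlapped or lay within 1 kb of 6 of the 7 members that were lower after TMM normalization, and of 17 of the 19 tested members. ZNF276 overlaps FANCA, POLG overlaps FANCI and VCP overlaps FANCG. EMC3 overlaps FANCD2, and its counts were not analysed here. GORASP1 overlaps WDR48 and had 0, 1 and 1 counts against 1, 17 and 12. Without a known strand setting, reads of such overlapping genes cannot be told apart.

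After TMM normalization FANCA, FANCG, FAAP24, EME1 and POLH stayed lower and FANCD2 stayed higher at the criterion in all 6 fits that left out a library. The log2 fold change of FANCA then ranged from -1.77 to -1.17, and that of EME1 from -1.81 to -0.89. Without NC replicate 1, NC replicate 2, Si-LIPG replicate 2 or Si-LIPG replicate 3, edgeR gave 0 members and 0 of all 6574 tested genes an adjusted p under 0.05, while 6 to 8 members had an unadjusted p under 0.05. When the percentage of reads falling on genes entered as covariate, 0 members were lower at the criterion, where 63 of the 6574 tested genes were lower and 71 higher and 0 had an adjusted p under 0.05. FANCD2 did not meet the criterion in that fit (log2 fold change 1.35), and REV1 was the one member that did (2.70). Without NC replicate 1, after TMM normalization 6 members were lower and 1 was higher at the criterion.

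Other genes of crosslink repair were described from a list of 49, of which 37 had a row and 19 could be tested. After TMM normalization 4 were lower at the criterion (21.1% of those tested, against 12.9% of all tested genes) and 2 were higher (10.5%, against 7.83%). ERCC1, the partner of the nuclease XPF, had counts of 541, 474 and 440 in the NC libraries against 381, 299 and 295 with Si-LIPG and a TMM log2 fold change of -1.89 (standard error 0.41, edgeR adjusted p = 0.0395). TTI2, which works with TELO2, had 507, 486 and 518 against 537, 326 and 435, with a TMM log2 fold change of -1.49 (standard error 0.40, edgeR adjusted p = 0.0411). UIMC1, which brings BRCA1 to damaged DNA, had 0, 0 and 2 counts against 12, 13 and 24 and was higher at the criterion on both scales (edgeR adjusted p = 0.124 with TMM and 0.0462 per all reads). No fold is given for it because of the 2 counts in the NC groups. All NC libraries lay below the minimum of the low-count filter, so that UIMC1 was tested only through the group where it is high. Per all reads the values of ERCC1 and TTI2 were -0.37 and -0.02. On that scale 7 genes of the list were higher at the criterion (36.8%, against 46.1% of all tested genes) and 0 lower (against 0.0304%). The median of the list lay 0.21 below that of all tested genes after TMM normalization (-0.21), less far than the median of the members.

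Proliferation genes were set beside the members because the pathway acts in S phase. Of 25 such genes 20 could be tested. After TMM normalization 1 was higher at the criterion (5.00%, against 7.83% of all tested genes) and 1 lower (5.00%, against 12.9%). Scaled to all reads 14 were higher (70.0%, against 46.1%) and 0 lower (against 0.0304%). By EdU staining the paper reports less proliferation after LIPG knockdown, which these RNA values do not measure. Their median lay 0.28 above that of all tested genes after TMM normalization, whereas the median of the members lay below it. RRM1, a subunit of ribonucleotide reductase, was the higher one (log2 fold change 1.09, standard error 0.38, edgeR adjusted p = 0.0971), and the helicase subunit MCM7 the lower one (-1.26, standard error 0.36, edgeR adjusted p = 0.0493).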

How the data were processed

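RNA-seq of 3 NC and 3 Si-LIPG libraries, grouped by sample titles, was analysed. Poly(A) RNA was sequenced with the second cDNA strand marked by dUTP. The submitters' processing notes name fastp, HISAT2, SAMtools and HTSeq without versions; the genome build and strand setting are not given in the sources used here. The authors deposited raw counts for each library, with 5 rows for reads counted on no gene (97.1% to 99.0% of the reads), which were left out of library sizes except where counts were scaled to all reads. The authors also deposited FPKM values of the same genes, whose ratio to the counts gave gene lengths that were equal within 1% for all 14848 genes with a count.

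Counts were tested with edgeR 4.0.16 in R 4.3.3 (filterByExpr, TMM, quasi-likelihood test, no covariates) over 6574 genes, with Benjamini-Hochberg adjustment over all of them. limma 3.58.1 and DESeq2 1.42.0 were alternatives. The procedures were tested on simulated data. The common biological coefficient of variation was 40.5%. Counts of replicates differed beyond sampling noise, with chi-square over degrees of freedom between 4.21 and 12.5. For genes at 0, up to 3 counts remain possible from counting error alone. Members and gene lists were chosen with earlier results of these data known. Values are given for members at the criterion on either scale and for the 5 other tested members with most counts, with counts for the rest, and for other repair genes with an adjusted p under 0.05 after TMM normalization. RRM1, MCM7, UIMC1 and the neighbouring genes were named after their values were seen, and the ratio of the ID2 pair to the core complex was computed then too. RefSeq ARS1.2 gave names of neighbouring genes only, with 36 of 36 members found. No sequences were used here.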

Additional observations from a re-analysis of the deposited data

How the results depend on the processing

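DESeq2 size factors within edgeR and upper quartile normalization changed no member count by over 1.5 times. Scaled to all reads, 7 members were higher and 0 lower at the criterion, 1 had an adjusted p under 0.05 and the median log2 fold change was 0.961, and other pathway genes were 7 higher and 0 lower. With library sizes alone 4 members were higher and 3 lower, 1 had an adjusted p under 0.05 and the median was 0.0508. With limma on log2(FPKM + 1) the members were 4 higher and 3 lower with 0 adjusted calls and a median of 0.278, and 4 other pathway genes were higher. With limma on log2(FPKM + 0.1) they were 2 higher and 4 lower with 0 adjusted calls and a median of 0.568. limma gave 0 genes of all 6574 an adjusted p under 0.05 on either scale. DESeq2 gave 5 members an adjusted p under 0.05 and a median of 0.0100, and edgeR without a filter a median of 0.0534 and 4 other pathway genes higher, both over 36 members in place of 19. With at least 10 counts in every library 6 members were left, of which 0 were higher, with a median of -1.10, and 0 other pathway genes were higher. This filter removed FANCD2 and the other 6 members that were higher per all reads, because of their low NC counts, so that they were not tested there. When the percentage of reads falling on genes entered as covariate, 0 members were lower, 0 had an adjusted p under 0.05, the median was 0.0778, and 0 other pathway genes were higher and 0 lower; the cause was not tested.

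Whether replicate numbers pair the libraries remained unresolved. The correlation of same-numbered deviations ranged from 0.0639 to 0.21, but not every library correlated best with its own number. With a replicate block 6 members had an adjusted p under 0.05 and the median was -0.27. Over all tested genes 925 had such a p with the block, against 428 without it. Leaving out each library in turn gave 0 to 4 members with an adjusted p under 0.05, medians between -0.89 and -0.0892, and 0 to 2 other pathway genes higher. Scaled to all reads it gave 3 to 6 members higher, 0 to 3 with an adjusted p under 0.05 and medians between 0.438 and 1.43, an alternative chosen after seeing the data.

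Signs of single members turned as follows. Scaled to all reads the log2 fold change was 0.11 for EME1, 0.14 for REV3L, 0.34 for POLH, 1.11 for USP1, 0.37 for SLX4, 0.96 for TOP3A, 0.37 for POLK and 1.29 for BRIP1. With the covariate it was 0.0778 for EME1, 0.22 for REV3L and 0.20 for USP1. With library sizes alone it was 0.29 for USP1, 0.0508 for TOP3A and 0.495 for BRIP1. With limma it was 0.32 and 0.33 for USP1, 0.28 and 1.21 for SLX4, 0.0301 and 0.0306 for TOP3A, 0.61 and 1.57 for BRIP1, and 0.57 for POLK with the smaller pseudocount. For BRIP1 it was 0.00153 with upper quartile, 0.0126 with DESeq2, 0.0508 without a filter and 0.31 with the replicate block. Leaving out each library in turn, it ranged from -1.42 to 0.77 for SLX4 (positive without NC 2), from -0.18 to 0.60 for BRCA1 (negative without NC 3 or Si-LIPG 1), from -0.12 to 1.08 for ATR (negative without Si-LIPG 1) and from -0.48 to 0.60 for BRIP1 (positive without NC 2, NC 3 or Si-LIPG 1).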

Other observations

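Genes that overlap a member in the ARS1.2 annotation moved with it in some cases and not in others. ZNF276, a zinc finger gene that overlaps FANCA, had counts of 139, 119 and 82 in the NC libraries against 108, 84 and 49 with Si-LIPG, with, under TMM, a log2 fold change of -1.80 (edgeR adjusted p = 0.0423) beside -1.49 for FANCA. POLG, the mitochondrial DNA polymerase that overlaps FANCI, was counted 372, 278 and 331 times against 320, 282 and 270 times, with a log2 fold change of -1.50 (edgeR adjusted p = 0.0411) beside 0.93 for FANCI. VCP, a chaperone ATPase that overlaps FANCG, had counts of 37, 170 and 253 against 325, 552 and 686, and its log2 fold change was 0.66 (edgeR adjusted p = 0.36) beside -2.08 for FANCG.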
